A study of Mus musculus with 6 samples.

Results

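Ribosome biogenesis and nucleolar genes were followed in bone marrow cells that descended from transplanted haematopoietic stem cells (HSCs). They were taken as a written list of 46 gene symbols with roles in this process, and all 46 were among the 25033 symbols listed in each library. RNA sequencing had been done on 6 libraries of GFP+ cells, labelled as HSCs, sorted from the marrow of C57BL/6J mice with a labelled age of 6 months. In 3 libraries, called inhibitor libraries here, the mice had received HSCs treated with a miR-31-5p inhibitor. In the other 3, called control libraries, they had received HSCs treated with a control RNA. The labels give neither the chemistry of the inhibitor nor the host's conditioning, and they do not say whether libraries of a group stand for separate mice or cultures. The p-values therefore measure the spread between these libraries only, which may be technical.

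A ribosome is built in the nucleolus. RNA polymerase I transcribes the long precursor of the ribosomal RNAs there, and small nucleolar ribonucleoproteins (snoRNPs) guide the modification of its bases. The small subunit processome then folds and cleaves the part that becomes the 40S subunit, while a second set of factors assembles the 60S subunit. These genes are costly for a cell and are commonly higher in growing cells than in resting ones. In blood formation, HSCs are known for a low rate of protein synthesis compared with the progenitors they give rise to. The 46 genes were sorted by role into 5 sets, which held 6 genes of RNA polymerase I transcription, 8 of snoRNPs, 13 of the small subunit, 14 of the 60S subunit and 5 of other nucleolar proteins.

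The agent used on the donor cells was directed at miR-31-5p, whose mature sequence (RefSeq, GRCm38.p6, minus strand of chromosome 4, 88910614 to 88910635) is shown so that matches to it among the members can be read. Capitals mark the seed, bases 2 to 8.
mmu-miR-31-5p: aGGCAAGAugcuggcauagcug
The match to this seed, TCTTGCC, was found in the longest annotated 3′ untranslated region (GENCODE M21) of 4 of the 46 members, or 8.70%. It was found in 13.8% of the 12299 tested genes with such a region, whose median length was 1359 bases against 832 bases for the members. The 4 were Rrn3, Tsr1, Rrp1b and Gnl3l. Such a match is a description of the letters and not a functional site.

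Promoters from RefSeq (GRCm38.p6), running from 250 bases before to 50 bases after a start, were found for 40 members. The E box CACGTG, which reads the same on both strands and is the best known binding sequence of MYC, the transcription factor most closely tied to ribosome biogenesis, was sought in them. It was present in 9 of the 40 members (22.5%), against 1213 of 10324 tested genes with a promoter (11.7%). The stretches are shown, with up to 20 bases on each side inside the window and the E box in capitals, so that its surroundings can be compared.
Tsr1 (chr11:74898084-74898129, plus strand): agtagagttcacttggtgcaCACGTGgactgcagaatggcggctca
Nop2 (chr6:125131803-125131848, plus strand): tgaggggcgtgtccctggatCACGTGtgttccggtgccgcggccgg
Grwd1 (chr7:45830740-45830775, minus strand): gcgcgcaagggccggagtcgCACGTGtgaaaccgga
Pes1 (chr11:3963957-3964002, plus strand): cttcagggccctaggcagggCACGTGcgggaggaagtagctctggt
Mybbp1a (chr11:72441347-72441376, plus strand): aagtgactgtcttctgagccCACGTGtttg
Utp20 (chr10:88826765-88826797, minus strand): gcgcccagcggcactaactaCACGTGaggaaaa
Wdr43 (chr17:71616212-71616257, plus strand): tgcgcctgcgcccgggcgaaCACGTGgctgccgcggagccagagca
Pno1 (chr11:17211540-17211572, minus strand): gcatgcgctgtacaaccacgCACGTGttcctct
Rrn3, upstream copy (chr16:13780464-13780509, plus strand): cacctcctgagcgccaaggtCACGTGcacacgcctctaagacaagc
Rrn3, downstream copy (chr16:13780631-13780676, plus strand): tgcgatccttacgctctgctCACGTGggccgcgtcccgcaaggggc
Of these 10 E boxes, 7 began 2 to 40 bases after the annotated start (70%). Among the 1456 E boxes in promoters of tested genes, 13.5% began after the start. The 2 members with the largest changes in level, Gar1 and Rrp9, held no CACGTG in the window, and their promoters are shown whole for comparison.
Gar1 (chr3:129831347-129831646, minus strand): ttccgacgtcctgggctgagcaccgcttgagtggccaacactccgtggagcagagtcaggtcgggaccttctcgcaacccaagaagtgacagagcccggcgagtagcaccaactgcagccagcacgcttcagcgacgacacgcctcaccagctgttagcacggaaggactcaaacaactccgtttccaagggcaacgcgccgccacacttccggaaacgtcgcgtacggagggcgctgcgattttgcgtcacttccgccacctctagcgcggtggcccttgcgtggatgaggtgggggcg
Rrp9 (chr9:106477059-106477358, plus strand): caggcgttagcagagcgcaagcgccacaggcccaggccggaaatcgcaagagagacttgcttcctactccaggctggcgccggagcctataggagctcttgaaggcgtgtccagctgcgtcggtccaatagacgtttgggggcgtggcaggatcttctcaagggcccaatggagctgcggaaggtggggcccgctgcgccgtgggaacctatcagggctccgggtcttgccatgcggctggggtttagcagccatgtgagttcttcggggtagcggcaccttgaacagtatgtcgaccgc

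Libraries held 16873188 to 19496200 counts in the inhibitor group and 19866738 to 21245861 in the control group. Of the 12978 genes tested, 5259 (40.5%) differed at an adjusted p of 0.05. Every adjusted p given here is from the quasi-likelihood F-test of edgeR, adjusted by Benjamini-Hochberg over these genes. The median log2 change of all tested genes was -0.01. The second principal component, with 9.48% of the variance, set control library 1 off from its group, and values without it are given for the members that moved most when it was left out. Among HSC markers, Kit was at 400.3 to 409.8 CPM (TMM-scaled counts per 1000000) in inhibitor libraries and 379 to 418 CPM in control libraries, Procr at 6.38 to 8.27 CPM in inhibitor libraries and 0.95 to 1.18 CPM in control libraries, and Hoxb5 had no count in any library. Among the HSC markers tested, Procr (2.82) and Slamf1 (1.70) rose on the log2 scale, and Hlf (-0.92) and Ly6a (-0.41) fell. Mpo, a granule gene of myeloid progenitors, was at 4266 to 4366 CPM in inhibitor libraries and 4913 to 5448 CPM in control libraries, so transcripts of myeloid progenitors were abundant in both groups.

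Ribosome biogenesis genes were lower in the inhibitor group across every role. Of the 46 members, 36 fell, 0 rose and 10 did not pass, where 20.1% of all tested genes fell and 20.4% rose by the same test. No member with a positive change reached an unadjusted p of 0.05, and DESeq2 and limma-voom also called 36 lower and 0 higher. The median change was -0.30 on the log2 scale, a level 18.7% lower, and the changes of the members that fell lay between -0.70 and -0.20. In 41 members all 3 inhibitor libraries were below all 3 control libraries, which was so for 26.5% of tested genes. All 46 members had passed the filter on low counts, with at least 311 counts in every library, so none entered through a high value in a single group.

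**Figure D1:**
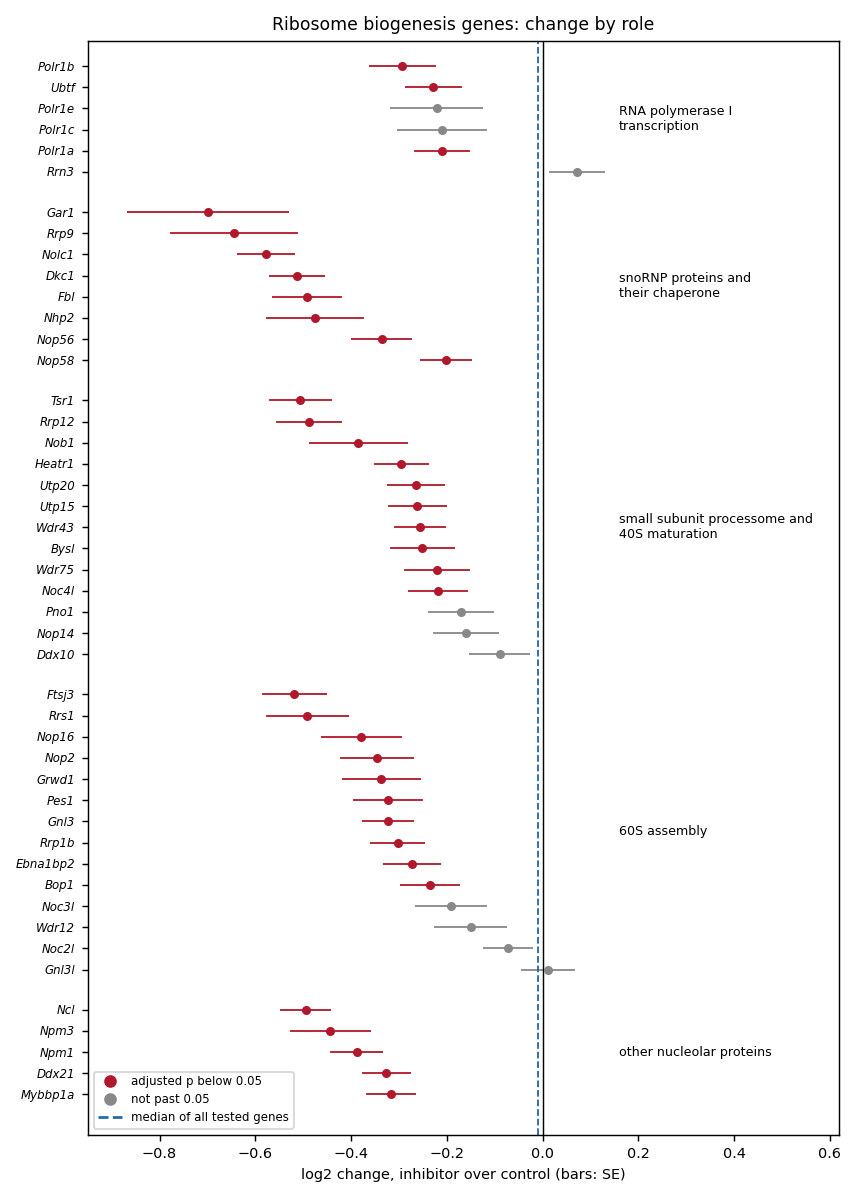
Log2 change of each of the 46 members, inhibitor over control, with its SE as a bar, in blocks by role. Red points passed an adjusted p of 0.05 (36 members, all lower), grey points did not, and the dashed line is the median of all 12978 tested genes at -0.01.

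Together the members took 0.606, 0.612 and 0.607% of all counts in inhibitor libraries 1 to 3, against 0.797, 0.751 and 0.772% in control libraries 1 to 3. Their summed level was 6063, 6113 and 6055 CPM in inhibitor libraries and 8091, 7454 and 7710 CPM in control libraries. The sums did not overlap, and the inhibitor libraries lay much closer to each other than the controls did. The difference did not rest on the most abundant members, since without Ncl and Npm1 the sums were 4172, 4183 and 4170 CPM in inhibitor libraries and 5355, 5004 and 5123 CPM in control libraries. CPM are shares of a library, so the amount of RNA per cell was not measured. In sorted bulk samples, fewer cells of a type that expresses a gene and less of its RNA per cell cannot be told apart.

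**Figure D2:**
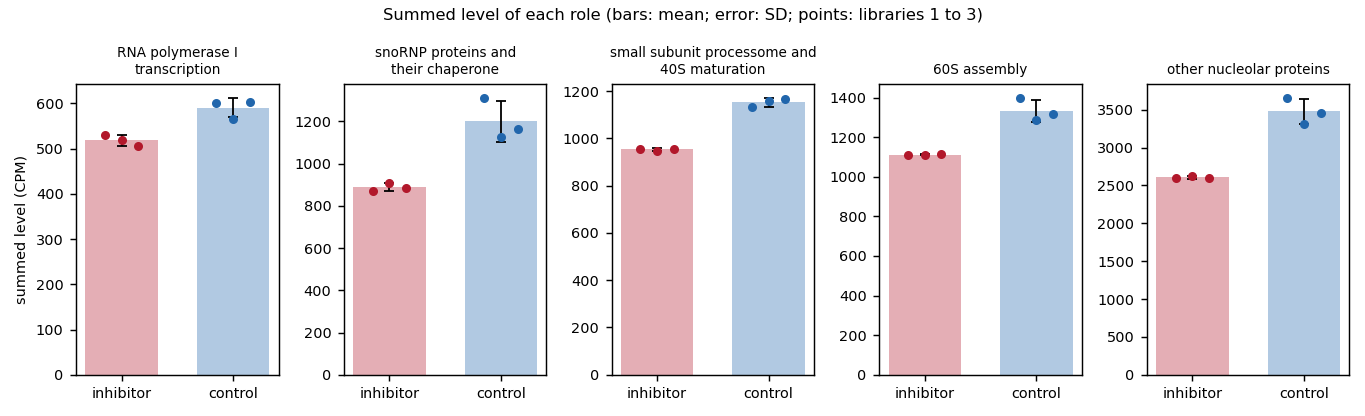
Summed CPM of the members of each role in inhibitor and control libraries. Bars are means of 3 libraries, error bars the SD and points the libraries, and in each role every inhibitor library lay below every control library.

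Of the 6 RNA polymerase I genes, 3 fell and 3 did not pass, with a median log2 change of -0.22. Polr1b, which encodes the second largest catalytic subunit (mm10 chromosome 2, 129100970 to 129128060), was at 59.0, 51.1 and 56.3 CPM in inhibitor libraries, against 67.2, 65.6 and 71.1 CPM in control libraries. The groups did not overlap, and the log2 change was -0.29 ± 0.07 (SE; edgeR adjusted p = 0.0037). Ubtf, the factor that binds the ribosomal DNA promoter and keeps its chromatin open (chromosome 11, 102304560 to 102323649), was at 239, 239 and 219 CPM in inhibitor libraries, against 285, 255 and 276 CPM in control libraries. Its change was -0.23 ± 0.06 (edgeR adjusted p = 0.00671), and the call was lost without inhibitor library 3 (-0.18) and without control libraries 1 and 3 (-0.14). Polr1a, the largest subunit (chromosome 6, 71909053 to 71979435), was at 95.6, 100.5 and 94.8 CPM in inhibitor libraries, against 108, 110.1 and 118 CPM in control libraries. Its change was -0.21 ± 0.06 (edgeR adjusted p = 0.00992), and the call was lost without control library 3 (-0.17) or without inhibitor library 3 (-0.19).

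The other 3 polymerase I genes did not pass. Rrn3, the initiation factor that makes the polymerase able to bind its promoter (chromosome 16, 13780699 to 13814841), was at 83.1, 79.6 and 82.8 CPM in inhibitor libraries and 76.7, 79.6 and 77.2 CPM in control libraries. It was the only member whose inhibitor libraries all lay above the controls, as 25.9% of tested genes did, and by a small margin, with a change of 0.07 ± 0.06 (edgeR adjusted p = 0.342). Polr1c, a subunit shared with RNA polymerase III, had a change of -0.21 ± 0.09 and passed without control library 2 (-0.26), but was at -0.12 without control library 1, -0.14 without inhibitor library 2 and -0.11 after a loess correction for length and GC content that was added once the data had been seen. Polr1e, another subunit of the enzyme, had a change of -0.22 ± 0.10 and passed without control library 1 (-0.25), but was at -0.14 without control library 3.

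All 8 snoRNP genes fell, with a median log2 change of -0.50. Nolc1, the nucleolar phosphoprotein that acts as a chaperone of snoRNPs (chromosome 19, 46075847 to 46085543), was at 159, 164 and 157 CPM in inhibitor libraries, against 255, 220.3 and 242 CPM in control libraries. It fell by 33.0%, a log2 change of -0.58 ± 0.06 (edgeR adjusted p = 1.95e-06). Dkc1, the pseudouridine synthase dyskerin that also belongs to telomerase (chromosome X, 75095854 to 75109776), was at 99.4, 109.6 and 104 CPM in inhibitor libraries, against 155, 144 and 147 CPM in control libraries. Its change was -0.51 ± 0.06 (edgeR adjusted p = 5.12e-06). Both genes were lower in every inhibitor library than in any control.

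Dyskerin works in box H/ACA particles with the products of Gar1, Nhp2 and Nop10. Gar1 (chromosome 3, 129824912 to 129831407) had the largest change of any member, with 28.3, 32.0 and 26.4 CPM in inhibitor libraries and 61.7, 39.7 and 39.6 CPM in control libraries. Its fall of 0.70 ± 0.17 on the log2 scale (edgeR adjusted p = 0.00949) leaned on control library 1, without which the change was -0.46 and still passed. Nhp2 was at 70.7 ± 0.79 CPM in inhibitor libraries and 98.3 ± 18.04 CPM in control libraries (SD, n = 3 each), a change of -0.48 ± 0.10, or -0.32 without control library 1, again past the threshold. Nop10, from the wider list described further on, fell by 0.72 ± 0.11 on the log2 scale, so all 4 genes of the particle's protein core were lower.

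Box C/D particles, which methylate the ribose of ribosomal RNA, are built on the products of Fbl, Nop56 and Nop58, and all 3 genes fell. Fbl, the methyltransferase fibrillarin (chromosome 7, 28168893 to 28179269), was at 134, 132 and 132 CPM in inhibitor libraries, against 212, 170.3 and 176 CPM in control libraries. Its change was -0.49 ± 0.07 (edgeR adjusted p = 8.42e-05), or -0.39 without control library 1, again past the threshold. Nop56 (chromosome 2, 130274367 to 130279313) was at 191, 202 and 201 CPM in inhibitor libraries, against 275, 234 and 241 CPM in control libraries, a change of -0.34 ± 0.06 (edgeR adjusted p = 0.000616). Its paralogue Nop58 had a change of -0.20 ± 0.05, the smallest among members that passed. Rrp9, a protein of the U3 particle that is needed to cleave the precursor (chromosome 9, 106477309 to 106485415), was at 19.6, 19.7 and 18.5 CPM in inhibitor libraries and 38.2, 26.4 and 25.9 CPM in control libraries. It fell by 0.64 ± 0.13 on the log2 scale (edgeR adjusted p = 0.00178), or by 0.44 without control library 1. Differences among these genes were not tested.

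**Figure D3:**
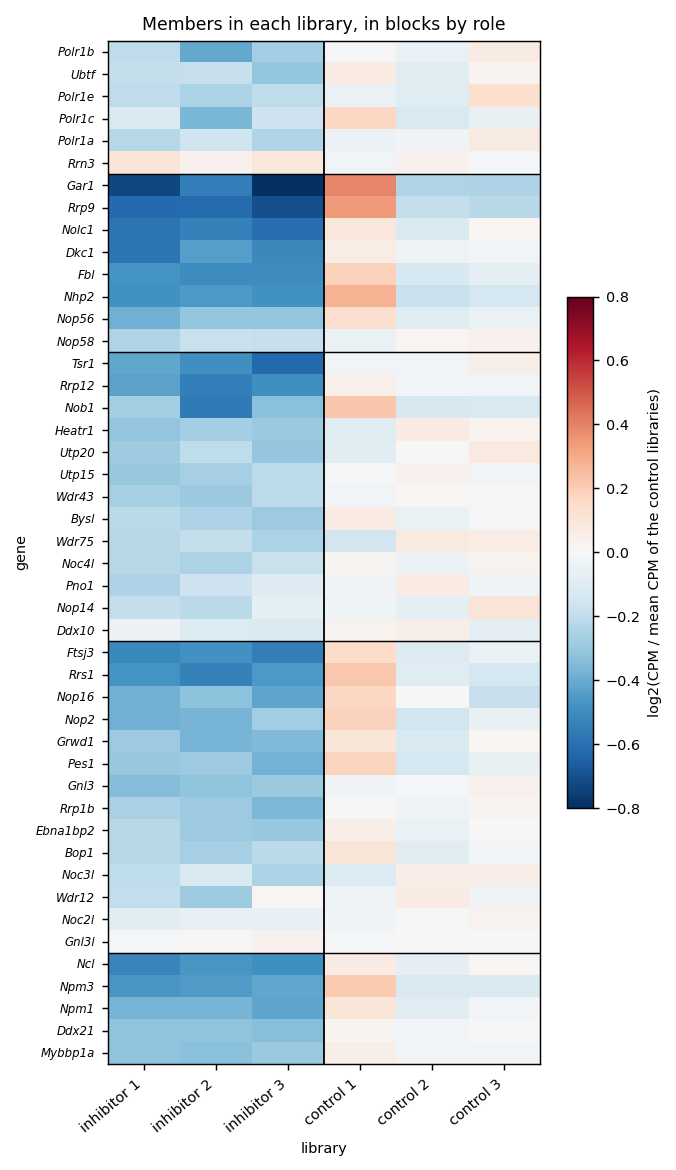
Level of each member in each library as log2 of its CPM over the mean of the control libraries, with genes in blocks by role and inhibitor libraries on the left. Blue cells are below the control mean; nearly every member is blue in all 3 inhibitor libraries, and Gar1, Rrp9 and Nhp2 are red in control library 1.

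Of the 13 small subunit genes, 10 fell and 3 did not pass, with a median log2 change of -0.26. Tsr1, a factor of late 40S maturation in the cytoplasm (chromosome 11, 74898080 to 74909340), was at 69.3, 65.7 and 59.9 CPM in inhibitor libraries, against 90.8, 91.1 and 95.2 CPM in control libraries. Its change was -0.51 ± 0.07 (edgeR adjusted p = 2.02e-05). Rrp12, which takes part in the maturation and export of 40S particles (chromosome 19, 41859483 to 41896153), was at 41.6, 38.3 and 39.9 CPM in inhibitor libraries, against 57.8, 55.1 and 55.3 CPM in control libraries. It fell by 0.49 ± 0.07 on the log2 scale (edgeR adjusted p = 4.32e-05). Neither gene's groups came near each other.

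Among genes of the processome itself, Heatr1, the counterpart of yeast Utp10 (chromosome 13, 12395375 to 12438893), was at 145, 149 and 147 CPM in inhibitor libraries and 169, 188 and 184 CPM in control libraries. Its change was -0.29 ± 0.06 (edgeR adjusted p = 0.000827). The other processome genes that passed, Wdr43, Wdr75, Utp15, Utp20 and Noc4l, had changes of -0.26 to -0.22. Utp20 was at -0.41 after the correction for GC content and length. Wdr75 (-0.22 ± 0.07) lost its call without control library 2 (-0.18) or 3 (-0.19) and without inhibitor library 1 (-0.22) or 3 (-0.20). Noc4l (-0.22 ± 0.06) lost it without control library 3 or inhibitor library 2 (-0.20 each), and without control libraries 1 and 3 (-0.17). Nob1, the endonuclease that cuts the 3′ end of 18S rRNA, fell by 0.38 ± 0.10 on the log2 scale. Its change was -0.26 without control library 1, and -0.30 without inhibitor library 2, where the call was lost. Pno1, whose product is a partner of Nob1 in the particle, was at -0.17 ± 0.07 and did not pass, nor did Nop14 (-0.16 ± 0.07) or the helicase gene Ddx10 (-0.09 ± 0.06). Bysl, an assembly factor of the 40S particle, fell by 0.25 ± 0.07 on the log2 scale. Without control library 1, Pno1 (-0.19) and Nop14 (-0.18) passed, but Nop14 was at -0.10 without control library 3.

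Of the 14 genes of 60S assembly, 10 fell and 4 did not pass, with a median log2 change of -0.31. Ftsj3, a methyltransferase of the precursor and the counterpart of yeast Spb1 (chromosome 11, 106249138 to 106256084), was at 80.6, 82.5 and 78.6 CPM in inhibitor libraries, against 128, 108 and 111 CPM in control libraries. Its change was -0.52 ± 0.07 (edgeR adjusted p = 2.25e-05). Rrs1, which helps bring the 5S particle into the pre-60S (chromosome 1, 9545408 to 9547455), was at 49.97, 47.7 and 50.6 CPM in inhibitor libraries, against 80.5, 64.9 and 63.0 CPM in control libraries. It fell by 0.49 ± 0.09 on the log2 scale (edgeR adjusted p = 0.000368), or by 0.37 without control library 1.

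Gnl3, which encodes nucleostemin, a nucleolar GTPase known from stem and tumour cells (chromosome 14, 31012433 to 31019131), was at 102, 104 and 105 CPM in inhibitor libraries, against 127, 129 and 133 CPM in control libraries. Its change was -0.32 ± 0.05 (edgeR adjusted p = 0.000228), and it lay between -0.34 and -0.30 when any single library was left out. Its paralogue Gnl3l was at 81.9, 82.9 and 84.7 CPM in inhibitor libraries and 82.1, 82.8 and 82.7 CPM in control libraries, a change of 0.01 ± 0.06 (edgeR adjusted p = 0.895). The groups of Gnl3l overlapped, and whether the paralogues differed from each other was not tested. In the complex of Pes1, Bop1 and Wdr12, which is needed to process the large rRNAs, Pes1 (-0.32 ± 0.07, or -0.23 without control library 1) and Bop1 (-0.24 ± 0.06) fell. Wdr12 was at -0.15 ± 0.08 and did not pass, and leaving out a library moved it both ways: it passed without control library 1 (-0.17) or inhibitor library 3 (-0.24), and was at -0.09 without inhibitor library 2.

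The other 60S genes included Noc2l, the most abundant of the 14 by CPM (chromosome 4, 156234655 to 156247616), whose product carries pre-60S particles and also binds p53. It was at 188, 189.5 and 189.5 CPM in inhibitor libraries and 194, 199 and 203 CPM in control libraries. The groups did not overlap, but the change of -0.07 ± 0.05 did not pass (edgeR adjusted p = 0.282). Its partner Noc3l (-0.19 ± 0.08) did not pass either, and passed without control library 1 (-0.25). Nop2, which methylates a cytosine of 28S rRNA, fell by 0.35 ± 0.08 on the log2 scale, or by 0.25 without control library 1, and 4 further assembly factors, Nop16, Grwd1, Rrp1b and Ebna1bp2, had changes of -0.38 to -0.27, all past the threshold.

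All 5 of the other nucleolar proteins fell, and they held the largest share of the difference in summed CPM, with 2595, 2631 and 2593 CPM in inhibitor libraries and 3651, 3317 and 3461 CPM in control libraries. Ncl, nucleolin, an RNA-binding protein of the nucleolus (chromosome 1, 86344719 to 86359455), was at 986, 1027 and 1013 CPM in inhibitor libraries, against 1485, 1345 and 1435 CPM in control libraries. It fell by 29.0%, a log2 change of -0.49 ± 0.05 (edgeR adjusted p = 2.83e-06). After the correction for GC content and length, which used the listed 8257 bases, the change was -0.68. In the other alternative fits it lay between -0.53 and -0.42. Npm1, nucleophosmin, a histone and ribosome chaperone that is often mutated in human acute myeloid leukaemia (chromosome 11, 33152498 to 33164142), was at 905, 902 and 873 CPM in inhibitor libraries, against 1251, 1104 and 1153 CPM in control libraries. Its change was -0.39 ± 0.06 (edgeR adjusted p = 5.95e-05). Npm1 and Npm3 have pseudogene copies, and the sources used here do not say how shared reads were counted, so both counts are uncertain. Ddx21, a helicase that links RNA polymerase I with rRNA processing (chromosome 10, 62580247 to 62602298), was at 299.8, 299.8 and 296 CPM in inhibitor libraries, against 380.2, 368 and 374 CPM in control libraries, a change of -0.33 ± 0.05 (edgeR adjusted p = 0.00013). Mybbp1a (-0.32 ± 0.05) and Npm3 (-0.44 ± 0.08, or -0.33 without control library 1 and -0.29 after the correction for GC content and length) fell as well.

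Levels of different genes were compared per length, in the deposited RPKM (reads per kilobase of the listed maximum length and per 1000000 reads). The members spanned a wide range. Npm1 had the highest RPKM, at 645 ± 11.5 in inhibitor libraries and 812 ± 50.03 in control libraries (SD, n = 3 each), and Polr1e the lowest, at 5.03 ± 0.10 in inhibitor libraries and 5.63 ± 0.28 in control libraries. Ncl was at 122 ± 2.82 RPKM in inhibitor libraries and 165 ± 6.30 in control libraries, where the length used as divisor was 8257 bases. Across the 46 members, the log2 change had a Spearman correlation of -0.32 with the mean log2 RPKM, given as a description over genes measured in the same libraries.

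Spread within a group was smaller in the inhibitor libraries. The median coefficient of variation of the members was 3.10% in inhibitor libraries and 5.71% in control libraries, and it was larger in the control group for 35 of 46 members. Control library 1 held the highest control value of 25 members. Its excess over the other controls had a Spearman correlation of -0.56 with the listed length across the 46 members, and of -0.41 across all tested genes. The log2 change itself had a correlation of 0.26 with length, and of 0.02 when computed from means without control library 1. Without that library 41 members fell and the median was -0.28. After the correction for GC content and length, 42 fell and the median was -0.31. Under that correction the changes of short genes were -0.57 for Gar1, -0.53 for Rrp9 and -0.32 for Nhp2, and each still passed.

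**Figure D4:**
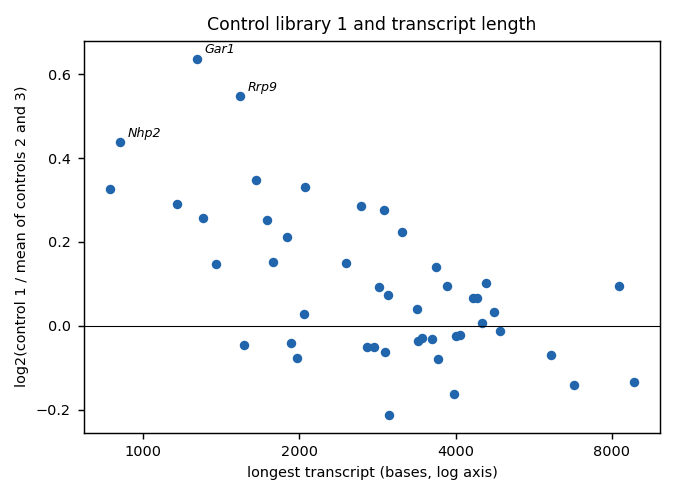
Log2 ratio of control library 1 to the mean of control libraries 2 and 3 for each member, against the listed length in bases on a log axis. Short genes such as Gar1, Rrp9 and Nhp2 lie highest, and the long genes Heatr1 and Polr1a lie below 0. Ncl, with a listed length of 8257 bases, lies above 0.

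The other genes of the pathway were counted from a wider list of 133 tested genes that shares no member with the 46. Of these, 76 fell and 0 rose by the same test, with a median log2 change of -0.23, where 20.1% of all tested genes fell and 20.4% rose. No gene with a positive change reached an unadjusted p of 0.05, and DESeq2 called 72 lower and limma-voom 76, with 0 higher in both. Without control library 1, Dimt1, a methyltransferase of 18S rRNA, was called higher (0.26). In the RNA polymerase I part of the list, 5 of 11 fell, among them Tcof1, treacle (-0.28 ± 0.06), and the subunit gene Polr1d (-0.41 ± 0.09). Of 9 genes of snoRNP assembly, 5 fell, with Ruvbl2 (-0.47 ± 0.07), a helicase of the assembly machinery, and Nop10 having the smallest p-values. Of 46 small subunit genes, 27 fell, with the smallest p-values for the rRNA methyltransferase gene Emg1 (-0.50 ± 0.07) and the acetyltransferase gene Nat10 (-0.42 ± 0.06). Of 51 genes of 60S assembly, 30 fell, with the smallest p-values for Wdr74 (-0.61 ± 0.09) and Ppan (-0.50 ± 0.08). Of 16 genes of the exosome and other nucleases that trim the precursor, 9 fell, such as the exosome subunit genes Exosc7 (-0.52 ± 0.09) and Exosc5 (-0.40 ± 0.09).

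**Figure D5:**
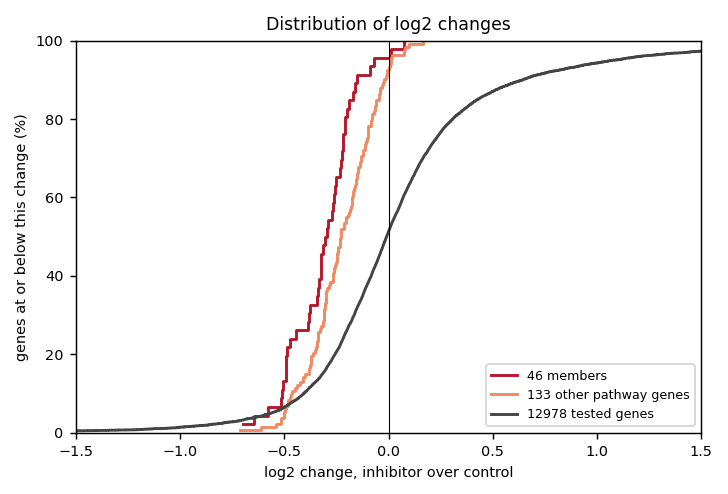
Cumulative distribution of log2 changes, inhibitor over control, for the 46 members, the 133 other genes of the pathway and all 12978 tested genes. Of the members 44 lie below 0, with a median of -0.30, the other pathway genes have a median of -0.23 and all tested genes of -0.01.

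Host genes of small nucleolar RNAs are mostly noncoding transcripts whose introns release the guide RNAs of the snoRNPs. Of 12 tested, 2 rose, 2 fell and 8 did not pass, with a median log2 change of 0.05, and these counts are near the background of 20.4% higher and 20.1% lower over all tested genes. Snhg6 (0.43 ± 0.10) and Snhg15 (0.43 ± 0.15) rose, and Snhg3 (-0.56 ± 0.13) and Snhg12 (-0.72 ± 0.20) fell. Counts of a spliced host transcript do not measure the small RNAs themselves.

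The precursor rRNA, the transcript of RNA polymerase I, is listed as Rn45s. It was at 162, 118 and 105 CPM in inhibitor libraries, against 1006, 183 and 2899 CPM in control libraries. The groups did not overlap, but the controls differed many-fold among themselves, and the log2 change of -3.41 ± 1.14 did not pass (edgeR adjusted p = 0.0822). The libraries were made with an mRNA kit, in which rRNA is meant to be left out, so these counts also depend on how completely it was removed. The part of that in the values was not tested. Without Rn45s and the 50 most abundant genes, 36 members fell and the median of the members was -0.30.

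Markers of other cell types moved with the groups, and their part in the changes of ribosome biogenesis genes was not tested. All 6 megakaryocyte and platelet markers rose, with a summed level of 3126 to 3253 CPM in inhibitor libraries and 1377 to 1597 CPM in control libraries. Of 7 neutrophil markers, Ngp, Ltf, S100a8, S100a9 and Camp rose, with log2 changes of 0.71 to 1.69, and Mpo and Elane fell. The sums were 4855 to 4969 CPM in inhibitor libraries and 5389 to 5954 CPM in control libraries, and Mpo held most of each. Of 6 monocyte markers 1 rose and 1 fell, with sums of 1365 to 1417 CPM in inhibitor libraries and 1590 to 1643 CPM in control libraries. Of 6 dendritic cell markers, Cd74 (0.69), H2-Aa (0.60) and Itgax (0.43) rose on the log2 scale, and Siglech (-0.60) and Ccr9 (-2.78) fell. Their sums, of which Cd74 held most, were 1008 to 1032 CPM in inhibitor libraries and 718 to 848 CPM in control libraries. Of 4 mast cell and basophil markers 2 rose, with sums of 679 to 753 CPM in inhibitor libraries and 595 to 648 CPM in control libraries. Of 5 tested erythroid markers 3 rose, with sums of 382 to 387 CPM in inhibitor libraries and 360.1 to 429 CPM in control libraries. Summed HSC markers were at 1048 to 1093 CPM in inhibitor libraries and 986 to 1022 CPM in control libraries. T cell transcripts were near 0, with at most 1 count of Cd3e or Cd3g in any library. Cd79b, at 8.58 to 9.55 CPM in inhibitor libraries and 14.6 to 17.7 CPM in control libraries, was the only B cell marker tested. Of 3 tested T and NK cell markers, Il7r rose and Nkg7 fell, with sums over the list of 71.8 to 73.2 CPM in inhibitor libraries and 44.3 to 54.1 CPM in control libraries.

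Members with and without an E box in the promoter window are set side by side as a description. The 9 members with CACGTG had a median log2 change of -0.32, and 7 of them fell. The 31 members whose window lacked it had a median of -0.29, and 24 of them fell. Rrn3 and Pno1, which hold the motif, did not pass. Of the 4 members with a match to the miR-31-5p seed, Tsr1 (-0.51) and Rrp1b (-0.30) fell and Rrn3 (0.07) and Gnl3l (0.01) did not pass. Rrn3 and Gnl3l were the only members with a positive change, and Gnl3l was at -0.08 after the correction for GC content and length.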

How the data were processed

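Libraries had been made from Trizol-extracted RNA with an mRNA kit, per the labels' protocols. The deposited read counts per RefSeq gene symbol were not normalised by the authors. The deposited RPKM are scaled to the maximum length listed for a gene, per the file headers, and to a library total above the summed counts. The excess was 0.22 to 0.35% in inhibitor libraries and 0.49 to 8.68% in control libraries. RPKM of the groups are thus not on exactly the same scale. They were used to set genes side by side, and differences between groups were taken from the counts. The submitters' processing notes name mm10 and bcl2fastq 2.20. No source used here gives the aligner, counter or strand setting, and reads of a gene and an overlapping antisense gene therefore cannot be separated.

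The filterByExpr function (minimum count 10, minimum total 15) kept 12978 genes. With TMM factors of 0.985 to 1.01, these were tested in R 4.3.3 by the quasi-likelihood F-test of edgeR 4.0.16 in its robust form. Adjustment was by Benjamini-Hochberg with a threshold of 0.05. The SE of a log2 change is its size divided by the square root of its F value. Replicates of a group differed by more than counting noise (chi-square per degree of freedom 3.04 to 16.8), so each library counted as 1 sample. Libraries held 16873188 to 21245861 counts, and each member had at least 311 counts in every library.

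The members, lists and tests were chosen with earlier results of these data known. Members named with their values in each library were the 3 with the smallest p and the most abundant by CPM of each role, and, outside that rule and after their values were seen, Gar1, Rrp9, Rrn3 and Gnl3l. Others are named for a call or a value that depended on a library, or to complete a complex. Symbols were matched exactly, older and newer ones of a gene counting once. Gene positions are RefSeq's on GRCm38.p6 (mm10).

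Alternatives were RLE size factors, no filter or a stricter filter on low counts, the replicate number as a block, DESeq2 1.42.0, limma-voom (limma 3.58.1), leaving out each library, leaving out control libraries 1 and 3, removing Rn45s plus the 50 genes of highest count, and an adjusted p of 0.1. A loess correction for GC content and length (span 0.4) was added after seeing the data. The test was checked on simulated counts with known changes, 50 genes at each size. It recovered 20 at 1.25-fold, 37 at 1.5-fold, 44 at 2-fold and 50 at 4-fold, with 10 false calls in 12859 genes. The simulated data held far fewer changed genes than the 5259 called in the real data, which makes the adjusted threshold stricter. These rates therefore do not carry over to the members, whose chance of being missed was not measured. A member that did not pass may still have changed. Python 3.11.15 was used for the sequence searches. The files held 0 columns of other samples.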

Additional observations from a re-analysis of the deposited data

How the results depend on the processing

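The number of members that fell stayed within 1.5 times of the reported 36 under every alternative run. It was 33 to 41 when each library was left out in turn, 34 without control libraries 1 and 3 and 42 after the correction for GC content and length, and 0 members were called higher in any of them. The median log2 change of the members lay between -0.31 and -0.27 throughout. Of the 36 calls, 27 held under all 16 alternatives and 9 were lost in at least 1. Those 9 were Polr1a, Ubtf, Wdr75, Noc4l and Nob1, given above, Gar1 (no filter on low counts), and Bysl (-0.20), Bop1 (-0.16) and Grwd1 (-0.22). These last 3, with Ubtf and Noc4l, were lost when the control group was left with library 2 alone, assumed to vary like the other libraries, where Pes1 was at -0.19 and Nop2 at -0.20. Of the 10 members that did not pass, 7 passed in at least 1 alternative. The wider list had 57 to 81 changed genes when each library was left out, of which 0 to 1 were higher. The count over all genes ranged from 4045 to 6365. The replicate number as a block left 38 members lower, 81 genes of the wider list lower and 5673 genes changed. The deviations of same-numbered libraries had correlations of 0.06, 0.01 and 0.04, all under 0.1. Each inhibitor library correlated best with the control library of its number, but control library 2 correlated best with inhibitor library 3 (0.02). Such small values cannot tell whether equal numbers mark pairs. Every member had at least 311 counts in each library, and counting error was not separated from other spread within a group. Each group had only 3 libraries, which limits the precision.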
